A study of Danio rerio with 7 samples.

Results

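CCN proteins, thrombospondins, tenascin-C and SPARC are matricellular proteins, which are secreted into the extracellular matrix and act on cells rather than forming its structure. Their genes were followed in a traced lineage of zebrafish heart cells, labelled through the periostin gene postnb. All IDs of the deposited table whose zebrafish gene name was CCN1, ccn2, thbs1, thbs2, thbs3, thbs4, TNC or sparc were taken, in any case and with or without a final paralog letter a or b. This gave 13 of 31388 gene IDs: CCN1, CCN2, ccn2b, thbs2a, thbs2b, 1 THBS1, 2 THBS3, 2 THBS4, 2 TNC and 1 SPARC. The name table gives no paralog letter to most of them, so IDs that share a symbol are told apart by their ENSDARG numbers.

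RNA came from cells of adult zebrafish hearts (fish 3 to 9 months old) that were sorted for mCherry after dissociation of the ventricular apex, following cryoinjury, a freezing injury from which the fish heart regenerates. Pools of 3 to 5 hearts were taken at 60 days post injury (dpi; 3 pools, replicates 1, 2 and 4) and at 7 dpi (4 pools, replicates 1 to 4). Fish of both groups carried postnb:CreERT2 and ubb:loxP-GFP-loxP-mCherry and received 10 µM 4-OHT overnight at 3 and 4 dpi. A cell is therefore labelled if it or its ancestor used postnb, a periostin gene, around those days, and cells that first used it later are not. Values are TPM, transcript levels per gene length scaled to the same total in each library, and the read depth behind them is unknown. The comparison asks how the labelled lineage differed between a late and an early stage of repair. Its p-values set that difference against the spread between these pools.

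As background, CCN1 (CYR61) and CCN2 (CTGF) bind integrins and heparan sulphate proteoglycans and are well-known transcriptional targets of YAP and TEAD, of SRF and of TGF beta signalling. Thrombospondins bind calcium, integrins and CD47. THBS1 and THBS2 of mammals restrain blood vessel growth, THBS1 can activate latent TGF beta, and THBS4 is made by stressed mammalian heart muscle. Tenascin-C is made for a short time at sites of injury and loosens cell adhesion, and SPARC binds collagen and helps its fibrils to assemble.

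The libraries differed in ways that bear on these values. Between 10840 and 14061 IDs had at least 1 TPM at 60 dpi and between 9844 and 15431 at 7 dpi, with replicate 4 lowest in each group. Fibroblast markers summed to 4236 to 5233 TPM at 60 dpi, against 1974 to 3512 TPM at 7 dpi, with none of 7 IDs at 0 in all pools of a group. Only 3 of the 7 (DPT, PDGFRA and DCN) passed as higher at 60 dpi, and the fold change was positive for 5. For col1a1a the groups overlapped. Markers of other cells were present too. Macrophage and leukocyte markers (16 IDs) summed to 2322 to 4980 TPM at 60 dpi, against 7985 to 10603 TPM at 7 dpi, and 12 of 15 tested were lower at 60 dpi. Mural markers (8 IDs) summed to 771 to 1066 TPM at 60 dpi, against 95.9 to 193 TPM at 7 dpi, and epicardial markers (6 IDs) to 1186 to 1628 TPM at 60 dpi, against 603 to 812 TPM at 7 dpi. Most of the mural sum was rgs5b, and most of the epicardial sum was krt4 and krt94. Only 2 of 6 tested mural IDs (rgs5b and RGS5) and 2 of 6 tested epicardial IDs (krt4 and krt94) passed as higher at 60 dpi. Cardiomyocyte markers (14 IDs) summed to 368, 4089 and 3428 TPM in replicates 1, 2 and 4 at 60 dpi. At 7 dpi they summed to 317 to 828 TPM. The fold change was positive for 10 of 11 tested cardiomyocyte IDs. Only 1 (MYL7) passed as higher at 60 dpi (limma adjusted p = 0.0467), and its groups overlapped. Smooth muscle markers summed to 437 to 589 TPM at 60 dpi, against 414 to 1135 TPM at 7 dpi, and endothelial markers to 229.5 to 247 TPM at 60 dpi, against 80.3 to 172 TPM at 7 dpi. Of 9 tested endothelial IDs, only 1 (klf2a) passed as higher at 60 dpi. Neutrophil markers summed to 7.45 to 12.7 TPM at 60 dpi, against 76.0 to 204 TPM at 7 dpi. Of 5 tested neutrophil IDs, only 1 (MMP9) passed as lower at 60 dpi, and the groups overlapped for lyz and npsn. Erythrocyte markers summed to 667 to 6087 TPM at 60 dpi, against 3154 to 7135 TPM at 7 dpi. In bulk samples, fewer cells of a type and less RNA per cell cannot be told apart, and the part of these cells in the results was not tested.

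Of the 13 IDs, all of which passed the filter on low values and were tested with limma, 4 were higher and none was lower at 60 dpi at a Benjamini-Hochberg adjusted p under 0.05. They were CCN1, thbs2a, CCN2 and one THBS3 ID. Across all 15130 tested genes, 6.88% passed, 3.20% as higher and 3.68% as lower. At an unadjusted p under 0.05, 5 of the 13 were higher and none was lower, against 1453 higher and 1880 lower of all 15130 tested genes. The median log2 fold change of the 13 was 0.51, against -0.04 for all tested genes, and it was positive for 11 of 13 against 48.3% of all tested genes. With TPM rescaled over the IDs that have a symbol, the median of all tested genes was -0.26 and the calls across the table were 376 higher and 812 lower, in place of 484 and 557. Relative to that median, the log2 fold changes under this scaling were 3.64 for CCN1, 3.01 for thbs2a, 1.77 for CCN2 and 1.23 for the THBS3 ID, ENSDARG00000077641. Without subtracting the median, the THBS3 ID had 0.97 and did not pass under this scaling (limma adjusted p = 0.111). CCN1, thbs2a and CCN2 still passed.

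**Figure D1:**
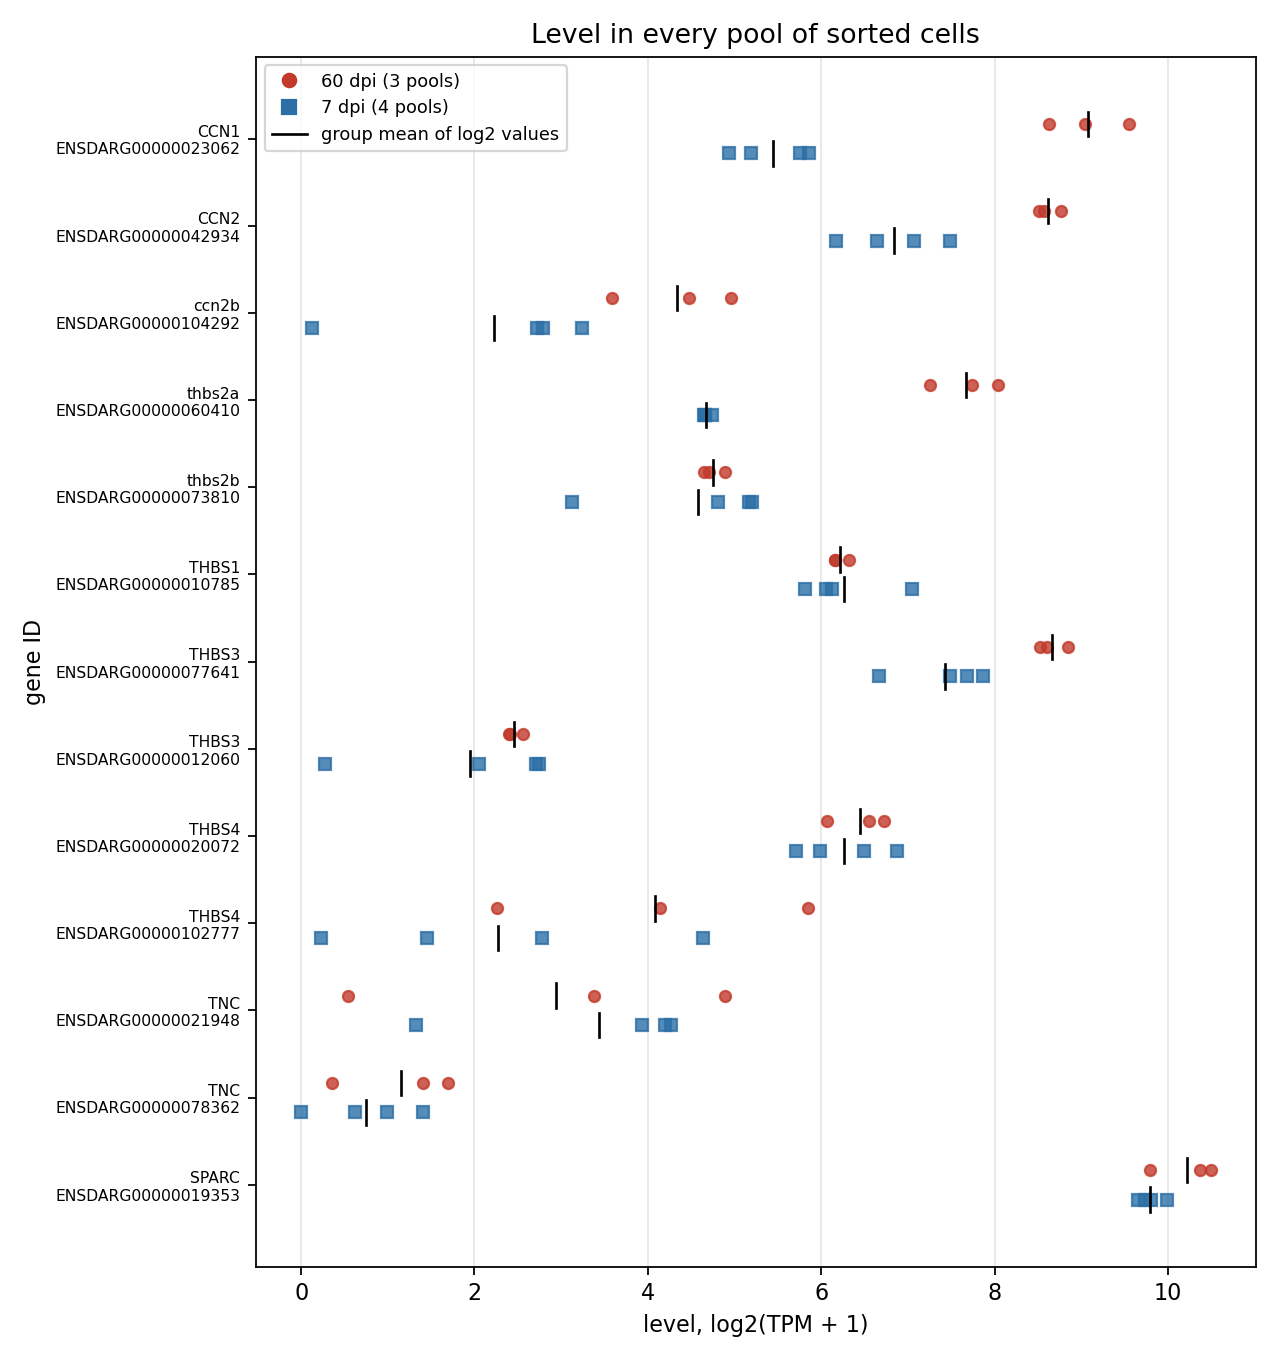
Level of each of the 13 gene IDs in every pool, as log2(TPM + 1), with 60 dpi above 7 dpi in each row and a tick at the group mean. The groups are apart for CCN1, CCN2, ccn2b, thbs2a and THBS3 (ENSDARG00000077641), and overlap for the other IDs.

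Of the 3 CCN IDs, CCN1 and CCN2 passed as higher at 60 dpi and ccn2b did not pass. CCN1 (ENSDARG00000023062) had 395, 752 and 525 TPM in replicates 1, 2 and 4 at 60 dpi, against 53.1, 29.7, 35.6 and 57.2 TPM in replicates 1 to 4 at 7 dpi. The lowest 60 dpi pool was 6.91 times the highest 7 dpi pool. The means were 557 ± 180.3 TPM (SD, n = 3) at 60 dpi and 43.9 ± 13.3 TPM (SD, n = 4) at 7 dpi, a 12.7-fold ratio. Its log2 fold change was 3.64 (SE 0.35, limma adjusted p = 0.000252), at rank 14 by p among the 15130 tested genes and rank 85 by fold change. CCN1 stood above 98.6% of tested genes at 60 dpi and 86.7% at 7 dpi. At 60 dpi its highest value fell in replicate 2, the pool with the highest cardiomyocyte marker sum, and its lowest in replicate 1, whose cardiomyocyte sum of 368 TPM lay within the 7 dpi range; the part of cardiomyocyte RNA in the result was not tested.

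CCN2 (ENSDARG00000042934), whose product promotes matrix synthesis by fibroblasts, had 364, 380 and 434 TPM in replicates 1, 2 and 4 at 60 dpi, against 178, 71.0, 134 and 98.9 TPM in replicates 1 to 4 at 7 dpi. All 60 dpi pools lay above all 7 dpi pools, and they lay closer together. The means were 392 ± 36.8 TPM at 60 dpi (SD, n = 3), against 120.3 ± 46.1 TPM at 7 dpi (SD, n = 4), and the log2 fold change was 1.77 (SE 0.34, limma adjusted p = 0.00938). The call was lost without a mean-variance trend (adjusted p = 0.0973) and with the replicate block (0.0577); over 18 other settings the adjusted p ran from 0.00332 to 0.0973. The paralog ccn2b (ENSDARG00000104292) was a minor one. It had 11.0, 30.2 and 21.2 TPM in replicates 1, 2 and 4 at 60 dpi, against 5.90, 5.60, 8.48 and 0.09 TPM in replicates 1 to 4 at 7 dpi. Its groups did not overlap either, but it did not pass (log2 fold change 2.12, SE 0.86, limma adjusted p = 0.171). Its share of the TPM of both IDs was 4.98% ± 2.23 at 60 dpi (SD, n = 3) and 4.15% ± 3.20 at 7 dpi (SD, n = 4). In all, groups did not overlap for 5 of the 13 IDs, all higher at 60 dpi; this held for 10.3% of all tested genes with 60 dpi higher and for 21.3% in either direction. Summed over the 3 CCN IDs, TPM was 770.2 to 1161 at 60 dpi and 106 to 237 at 7 dpi.

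**Figure D2:**
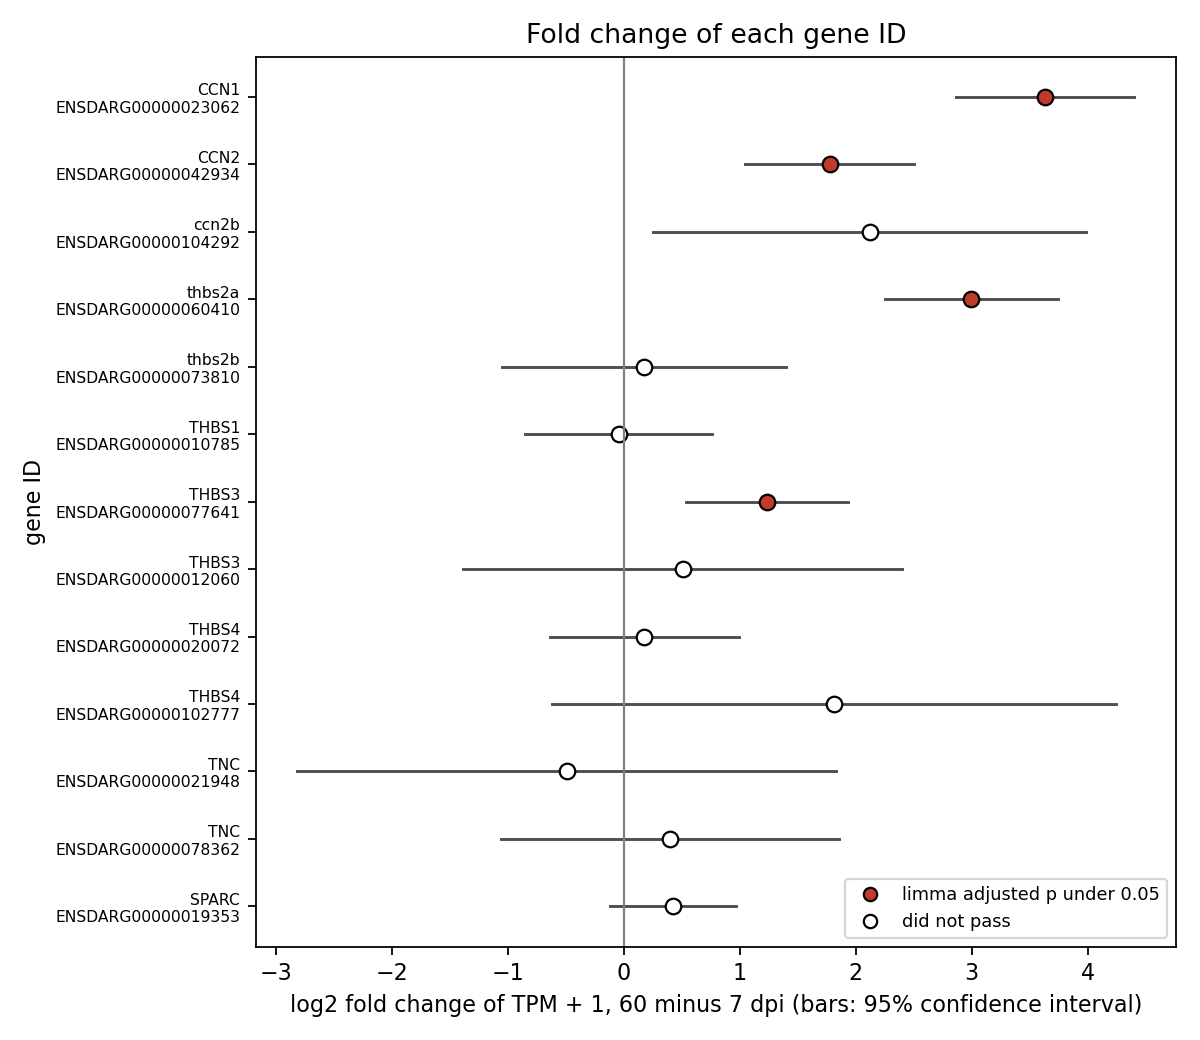
Log2 fold change of TPM + 1, 60 minus 7 dpi, of each gene ID with its 95% confidence interval. Filled points passed an adjusted p of 0.05, and the largest is CCN1 at 3.64; the intervals of the open points other than ccn2b include 0.

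Among the thrombospondins of the anti-angiogenic type, thbs2a stood out. thbs2a (ENSDARG00000060410) had 261, 212 and 151 TPM in replicates 1, 2 and 4 at 60 dpi, against 24.2, 25.7, 24.3 and 24.0 TPM in replicates 1 to 4 at 7 dpi. The 7 dpi pools differed by no more than 1.07 times, and the lowest 60 dpi pool was 5.89 times the highest of them. Its log2 fold change was 3.00 (SE 0.34, limma adjusted p = 0.000705), with means of 208 ± 55.1 TPM at 60 dpi (SD, n = 3), against 24.6 ± 0.78 TPM at 7 dpi (SD, n = 4).

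Its paralog thbs2b (ENSDARG00000073810) had 28.7, 25.2 and 24.1 TPM in replicates 1, 2 and 4 at 60 dpi, against 27.0, 35.9, 35.0 and 7.74 TPM in replicates 1 to 4 at 7 dpi, so the groups overlapped. Its log2 fold change was 0.17, with a 95% confidence interval of -1.05 to 1.40 (limma adjusted p = 0.905). thbs2a thus took 90.1, 89.4 and 86.3% of the TPM of the pair in replicates 1, 2 and 4 at 60 dpi, against 47.3, 41.7, 41.0 and 75.6% in replicates 1 to 4 at 7 dpi. The log2 ratio of thbs2a to thbs2b was 2.83 higher at 60 dpi, with p = 0.0571 in a two-sided exact permutation test over 35 splits, or 0.286 adjusted over 5 such pairs. The smallest p this test can give is 0.0286. RSEM shares reads between similar transcripts, so the division of TPM between paralogs is uncertain.

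**Figure D3:**
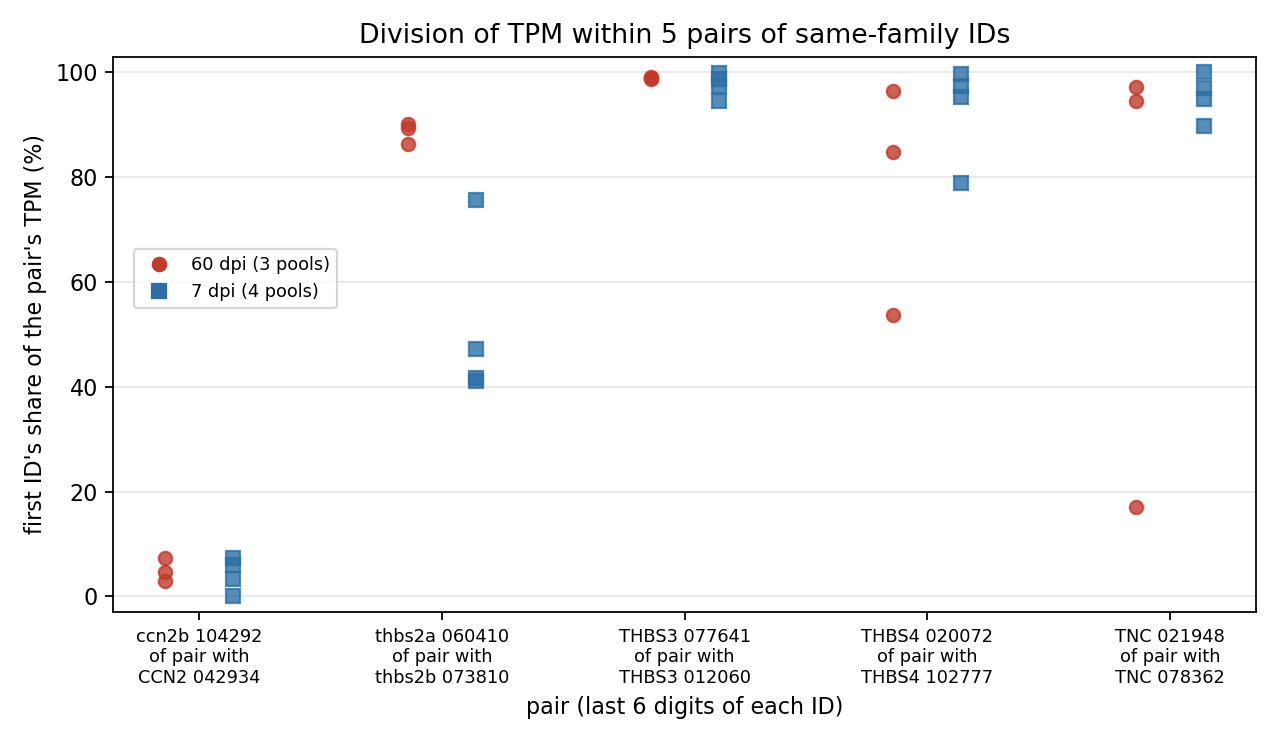
Share of the TPM of 5 pairs of gene IDs that the first ID took, in percent, with each point a pool and 60 dpi left of 7 dpi. The thbs2a shares lie between 86.3 and 90.1% at 60 dpi and between 41.0 and 75.6% at 7 dpi, while the shares of the other pairs overlap between the groups.

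THBS1 (ENSDARG00000010785) had 70.6, 70.25 and 79.2 TPM in replicates 1, 2 and 4 at 60 dpi, against 132, 65.4, 68.6 and 55.1 TPM in replicates 1 to 4 at 7 dpi. The groups overlapped, with replicate 1 high at 7 dpi. The log2 fold change was -0.04, with a 95% confidence interval of -0.85 to 0.76 (limma adjusted p = 0.966). THBS1 is also abundant in mammalian platelets. Markers of thrombocytes, the fish counterpart of platelets (4 IDs), summed to 9.00, 12.1 and 15.1 TPM in replicates 1, 2 and 4 at 60 dpi, against 182, 48.2, 63.5 and 113 TPM in replicates 1 to 4 at 7 dpi. The highest THBS1 value and the highest thrombocyte sum fell in the same 7 dpi pool. The lowest THBS1 value fell in the pool with the second highest sum. The part of thrombocytes in the THBS1 values was not tested.

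Of the thrombospondins of the pentameric type, THBS3 and THBS4, THBS3 was carried mainly by a single ID in every pool. THBS3 (ENSDARG00000077641) had 388.5, 367 and 461 TPM in replicates 1, 2 and 4 at 60 dpi, against 100.25, 204, 233 and 179 TPM in replicates 1 to 4 at 7 dpi, without overlap. Its means were 405 ± 49.1 TPM at 60 dpi (SD, n = 3), against 179 ± 57.0 TPM at 7 dpi (SD, n = 4). Its log2 fold change was 1.24 (SE 0.32, limma adjusted p = 0.0402), and the call was lost in 15 of 18 other settings. Among these were all 7 that leave out a single pool, with adjusted p from 0.0529 without 7 dpi replicate 1 or 3 to 0.0583 and 0.0588 without 7 dpi replicates 2 and 4, and 0.0844, 0.0904 and 0.11 without 60 dpi replicates 1, 2 and 4. The log2 fold change over the 18 settings ran from 0.97 to 1.38.

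The other THBS3 ID, ENSDARG00000012060, had 4.89, 4.32 and 4.29 TPM in replicates 1, 2 and 4 at 60 dpi, against 5.72, 5.56, 3.16 and 0.21 TPM in replicates 1 to 4 at 7 dpi, with overlap (limma adjusted p = 0.798). The main ID took 98.8 to 99.1% of the pair at 60 dpi and 94.6 to 99.9% at 7 dpi.

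THBS4 (ENSDARG00000020072) had 104, 65.8 and 92.7 TPM in replicates 1, 2 and 4 at 60 dpi, against 51.3, 89.3, 116 and 62.5 TPM in replicates 1 to 4 at 7 dpi. The groups overlapped, and the log2 fold change of 0.18 had a 95% confidence interval of -0.64 to 0.99 (limma adjusted p = 0.843). The second THBS4 ID, ENSDARG00000102777, varied far more. It had 3.79, 56.7 and 16.6 TPM in replicates 1, 2 and 4 at 60 dpi, against 0.17, 24.0, 5.84 and 1.74 TPM in replicates 1 to 4 at 7 dpi, and its pools differed by 15.0 times within 60 dpi. On the log2 scale it was 1.81 higher at 60 dpi (SE 1.12, limma adjusted p = 0.378). The pool with its highest value was replicate 2 in each group. Replicate 2 also had the highest cardiomyocyte marker sum in each group, 4089 TPM at 60 dpi, against 828 TPM at 7 dpi. The other sums were 368 and 3428 TPM in replicates 1 and 4 at 60 dpi, against 625, 449 and 317 TPM in replicates 1, 3 and 4 at 7 dpi. Replicate 1 at 7 dpi, second in that sum, had the lowest value of this ID. The part of cardiomyocyte RNA in these values was not tested. The first THBS4 ID took 53.7 to 96.5% of the TPM of the pair at 60 dpi, against 78.8 to 99.7% at 7 dpi. Summed over the 7 thrombospondin IDs, TPM was 801 to 862 at 60 dpi, against 329.85 to 486 at 7 dpi.

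Neither of the 2 tenascin-C IDs passed, and the second was near the filter on low values. TNC (ENSDARG00000021948) had 28.7, 9.44 and 0.46 TPM in replicates 1, 2 and 4 at 60 dpi, against 17.4, 18.2, 14.3 and 1.51 TPM in replicates 1 to 4 at 7 dpi. Replicate 4 was lowest in both groups, and the groups overlapped. The log2 fold change was -0.49, with a 95% confidence interval of -2.81 to 1.83 (limma adjusted p = 0.849), and it was 0.71 without 60 dpi replicate 4. TNC (ENSDARG00000078362) had 1.66, 0.28 and 2.24 TPM in replicates 1, 2 and 4 at 60 dpi, against 0.54, 0.99, 1.64 and 0 TPM in replicates 1 to 4 at 7 dpi (adjusted p = 0.792). It reached 1 TPM in only 3 libraries, the fewest that allowed a test. For the first TNC ID a change of several-fold in either direction could thus not have been told from the spread between pools.

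SPARC (ENSDARG00000019353) was the most abundant of the 13 IDs in both groups. It had 1439, 888 and 1323 TPM in replicates 1, 2 and 4 at 60 dpi, against 805, 892, 1015 and 850.2 TPM in replicates 1 to 4 at 7 dpi. Replicate 2 at 60 dpi lay inside the 7 dpi range, so the groups overlapped. The means were 1217 ± 291 TPM at 60 dpi (SD, n = 3), against 891 ± 90.3 TPM at 7 dpi (SD, n = 4). The log2 fold change of 0.42 had a 95% confidence interval of -0.12 to 0.97 (limma adjusted p = 0.355), and it turned to -0.12 with quantile normalization. It stood above 99.2% of tested genes in both groups. SPARC made up 31.0 to 46.4% of the summed TPM of the 13 IDs at 60 dpi and 57.5 to 63.6% at 7 dpi, while the CCN IDs made up 24.8 to 40.6% at 60 dpi and 7.24 to 16.9% at 7 dpi. The sum itself was 3032 ± 150.0 TPM at 60 dpi (SD, n = 3), against 1475 ± 156 TPM at 7 dpi (SD, n = 4).

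The order of mean levels in TPM, which is per gene length, put CCN1 at place 2 at 60 dpi and at place 6 at 7 dpi. The part of RNA amplification and of the division of reads between paralogs in this order was not tested. At 60 dpi SPARC came first, apart from all others, followed by CCN1, THBS3 (ENSDARG00000077641) and CCN2, whose neighbouring ranges overlapped. thbs2a followed at 208 TPM, apart from the IDs on either side, and then THBS4 (ENSDARG00000020072) and THBS1, which overlapped. thbs2b, THBS4 (ENSDARG00000102777), ccn2b and TNC (ENSDARG00000021948) came next, with neighbours overlapping, and the last were THBS3 (ENSDARG00000012060) and TNC (ENSDARG00000078362). At 7 dpi SPARC again stood apart, and from THBS3 (ENSDARG00000077641) at 179 TPM down to thbs2a at 24.6 TPM each ID overlapped the next.

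Genes with the most similar course over the 7 pools were sought among 6569 other genes with a symbol and a mean of at least 10 TPM, by the root mean square difference of log2(TPM + 1) after subtracting each gene's own mean. For CCN1 they were adgre10 (0.22), HSPH1 (0.37), which encodes a heat-shock protein, and FOSL1 (0.39), an AP-1 transcription factor gene. FOSL1 had 674 ± 61.6 TPM at 60 dpi, against 67.2 ± 5.37 TPM at 7 dpi (SD, n = 3 and 4). For thbs2a they were dap1b (0.22), nr1d2a (0.27), which encodes a clock repressor, and again FOSL1 (0.30). For CCN2 they were HOPX (0.19), RND3 (ENSDARG00000007396, 0.22) and PDCD4 (0.22). For THBS3 (ENSDARG00000077641) the nearest was DCN (0.11), the gene of the collagen-binding proteoglycan decorin, with 1112 ± 94.4 TPM at 60 dpi, against 492 ± 157 TPM at 7 dpi, followed by plp2b (0.17) and EIF4A2 (0.20). Among the 13 IDs themselves, SPARC and THBS4 (ENSDARG00000020072) differed least, by 0.28. CCN1 and TNC (ENSDARG00000021948) differed most, by 2.66. CCN1 and thbs2a differed by 0.58. The measure is a description of these 7 pools.

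**Figure D4:**
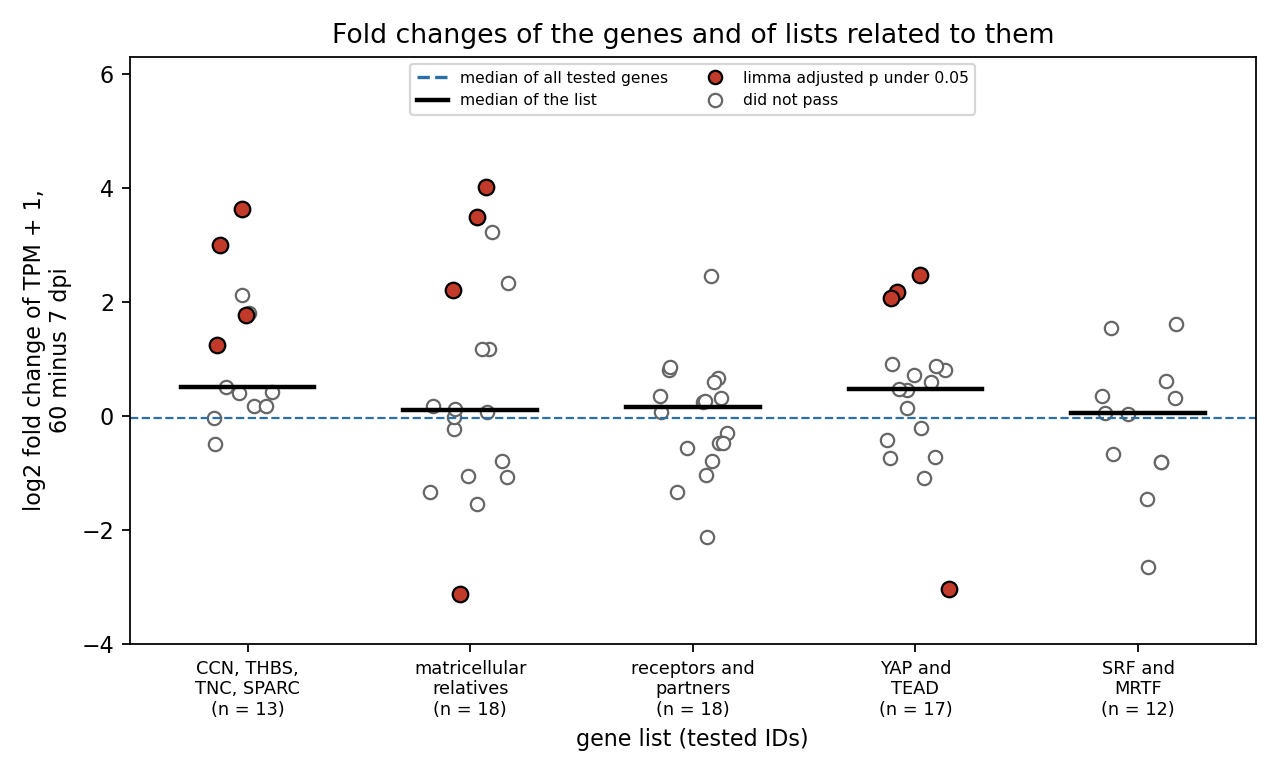
Log2 fold change of TPM + 1, 60 minus 7 dpi, of the tested IDs of the 4 families and of 4 related lists, with the median of each list as a black bar. Filled points passed an adjusted p of 0.05: 4 of 13, 4 of 18, 0 of 18, 4 of 17 and 0 of 12 from left to right.

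Among 18 tested matricellular relatives, such as CCN5, ccn1l2, SMOC1, periostin, follistatin-like and spondin genes, 3 were higher and 1 was lower at 60 dpi (limma, median log2 fold change 0.10). Of all tested genes, 3.20% were higher and 3.68% lower. The relative that fell was a periostin ID, POSTN (ENSDARG00000104267), with 109 ± 24.8 TPM at 60 dpi, against 948 ± 113 TPM at 7 dpi. Cells of both groups had been labelled through postnb, itself a periostin gene, and the part of this labelling in the fall was not tested. SPON1, a spondin gene, had 176 ± 43.8 TPM at 60 dpi, against 38.7 ± 14.2 TPM at 7 dpi, a call lost without a mean-variance trend (adjusted p = 0.0564, the highest of 18 other settings). FSTL3, which encodes an activin-binding protein, had 163 ± 86.0 TPM at 60 dpi, against 11.7 ± 9.71 TPM at 7 dpi. The third that rose was SPON2, with 16.4 ± 9.83 TPM at 60 dpi, against 0.40 ± 0.53 TPM at 7 dpi, a call lost in 7 of 17 other settings.

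Of 18 tested receptor and partner genes, mostly integrins, with syndecans and LRP1, none passed with limma (median 0.16). At an unadjusted p under 0.05, 2 were higher and 3 lower, against 1453 higher and 1880 lower of all 15130 tested genes. ITGA9, the integrin subunit that binds tenascin-C, had 31.0, 34.8 and 20.1 TPM in replicates 1, 2 and 4 at 60 dpi, against 11.1, 9.95, 3.82 and 0.24 TPM in replicates 1 to 4 at 7 dpi (adjusted p = 0.103). ITGAV, a subunit of integrins that bind CCN proteins, had 36.7 ± 5.46 TPM at 60 dpi, against 78.5 ± 21.7 TPM at 7 dpi (adjusted p = 0.123). LRP1 (ENSDARG00000029146), an uptake receptor for thrombospondins and CCN2, had 64.2 ± 10.5 TPM at 60 dpi, against 112 ± 16.2 TPM at 7 dpi (adjusted p = 0.164). The part of macrophages, whose marker sums were lower at 60 dpi, in the ITGAV and LRP1 values was not tested. Both passed with TPM rescaled over IDs with a symbol (adjusted p = 0.0296 and 0.0395).

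Of 17 tested genes of the Hippo pathway and its effectors YAP and TEAD, 3 were higher and 1 was lower at 60 dpi (limma, median 0.46). Of all tested genes, 3.20% were higher and 3.68% lower. YAP1, the transcriptional co-activator, had 128, 196 and 209 TPM in replicates 1, 2 and 4 at 60 dpi, against 54.1, 47.0, 47.1 and 22.6 TPM in replicates 1 to 4 at 7 dpi (log2 fold change 2.07, SE 0.39, limma adjusted p = 0.00919). The groups did not overlap, but the call was lost without a mean-variance trend (adjusted p = 0.0705) and with the replicate block (0.0644), within a range of 0.00375 to 0.0705 over 18 other settings. AMOTL2 and amotl2b, which encode angiomotin-like proteins that are both targets and inhibitors of YAP, had 86.3 ± 60.5 and 31.4 ± 11.0 TPM at 60 dpi, against 16.6 ± 6.71 and 5.15 ± 2.76 TPM at 7 dpi. Both passed (adjusted p = 0.0307 and 0.0386), but each call was lost in 9 of 18 other settings. mob1a encodes an activator of the LATS kinases that restrain YAP. It fell to 4.64 ± 1.41 TPM at 60 dpi, against 44.1 ± 3.67 TPM at 7 dpi (adjusted p = 0.00427). The part of macrophages and leukocytes, whose marker sums were lower at 60 dpi, in the mob1a values was not tested.

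Of 12 tested SRF and MRTF genes none passed with limma (median 0.04). At an unadjusted p under 0.05, 2 were higher and 3 lower, against 1453 higher and 1880 lower of all 15130 tested genes. SRF itself had 33.7 ± 8.38 TPM at 60 dpi, against 11.4 ± 5.67 TPM at 7 dpi (adjusted p = 0.121). acta2, the smooth muscle actin gene, had 17.0 ± 20.1 TPM at 60 dpi, against 63.7 ± 35.9 TPM at 7 dpi (adjusted p = 0.128). TAGLN (ENSDARG00000045408), a contractile gene, had 88.7 ± 13.2 TPM at 60 dpi, against 288 ± 198 TPM at 7 dpi (adjusted p = 0.0765). This ID passed in 5 of 18 other settings. A second TAGLN ID, ENSDARG00000033466, went the other way, without overlap between the groups. It had 381 ± 42.2 TPM at 60 dpi, against 256 ± 78.9 TPM at 7 dpi, and did not pass (limma adjusted p = 0.253).

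**Figure D5:**
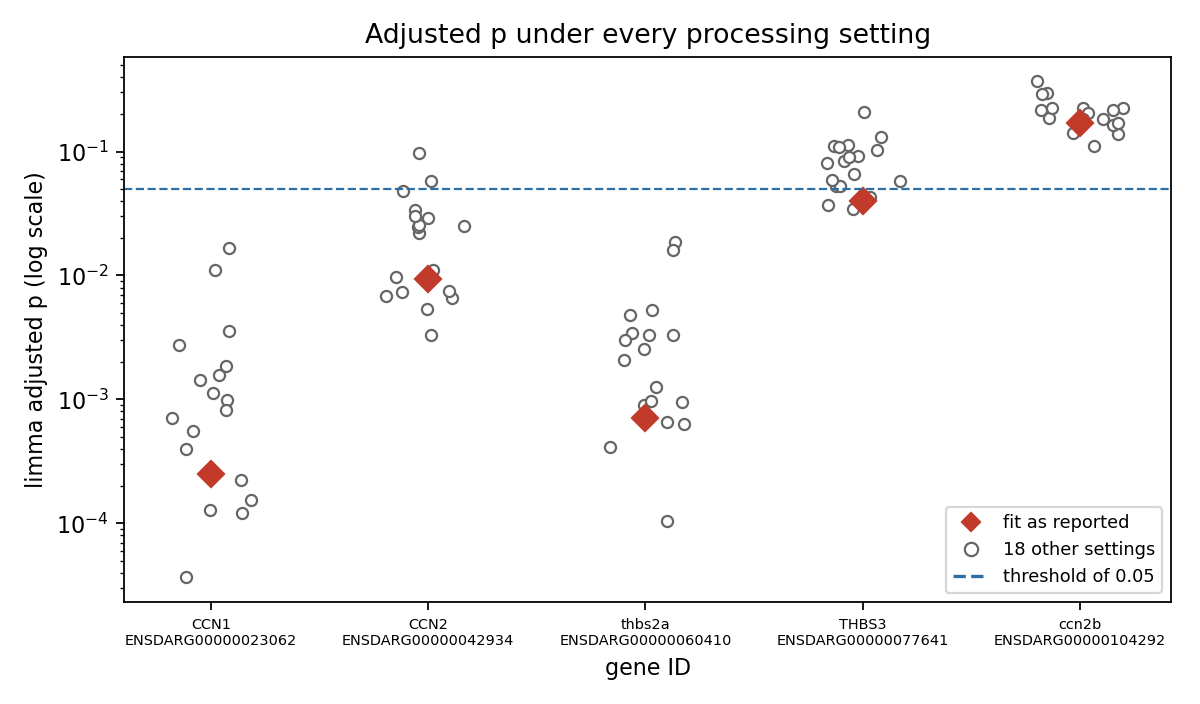
Limma adjusted p (log scale) of the 4 IDs that passed and of ccn2b, in the fit as reported (diamonds) and in 18 other settings (circles), with the threshold of 0.05 dashed. CCN1 and thbs2a lie under the threshold in all 18, CCN2 in 16, THBS3 (ENSDARG00000077641) in 3 and ccn2b in none.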

How the data were processed

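The deposited file holds TPM values, which the authors scaled to the same total in each of 7 libraries, for 31388 gene IDs. Per the submitters' processing notes, CASAVA 1.8.2, cutadapt and RSEM 1.2.25 were used with genome build Zv9 (aligner and annotation: not given in the sources used here). Per the labels' protocols, libraries came from 0.2 to 0.6 ng of amplified RNA, from which scarce transcripts can drop out by chance. Groups and replicate numbers came from the titles, and symbols from the supplied name table (25925 IDs).

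IDs with at least 1 TPM in at least 3 libraries (15130) were tested with limma 3.58.1 in R 4.3.3 on log2(TPM + 1), with time point as the only term, a mean-variance trend and Benjamini-Hochberg adjustment over all tested genes at 0.05. Fold changes are 60 minus 7 dpi on this scale, which understates changes of low genes. The fit was tested on simulated data. Single log2 ratios were compared with exact permutation tests (scipy 1.17.1). By symbol, 62 of 80 related and 62 of 68 marker names were matched. The genes and lists were chosen with earlier results of these data known. Named genes of related lists are the up to 4 with the smallest p, and likeness gives the nearest 3 genes of each ID that passed. Neither sequences nor coordinates were used here.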

Additional observations from a re-analysis of the deposited data

How the results depend on the processing

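All 18 alternatives were run. CCN1 and thbs2a passed in all of them, with log2 fold changes of 3.38 to 3.86 and 2.74 to 3.21, and no ID of the 13 was called lower in any. The number of the 13 that passed (4) was 2 without a mean-variance trend and 3 whichever single pool was left out. Across the table (1041 genes), 596 passed without a filter on low values, 477 without the trend and 1659 with array weights; leaving out single pools gave 581 to 1181, with 653 and 581 without 7 dpi replicates 2 and 3 and 583 without 60 dpi replicate 2. Deviations of same-numbered pools from their group means correlated with r = 0.01, 0.01 and 0.03 across genes for numbers 1, 2 and 4. Replicates 2 and 4 of each group correlated best with their own number, whereas 60 dpi replicate 1 did so with 7 dpi replicate 3. The labels do not say whether equal numbers mark a shared batch, and these correlations cannot settle it. With the replicate block 322 genes, 2 of the 13 IDs (CCN1 and thbs2a) and 1 YAP and TEAD gene passed. Of the YAP and TEAD genes (4), 2 passed without a filter, 1 without the trend, 2 without both replicates 4, and 2 to 3 without single pools, with 2 without replicate 2 of 7 dpi and without replicates 2 and 4 of 60 dpi. Of the receptor genes (0), 2 passed with symbol-based scaling, 1 with array weights and 0 without single pools. Of the SRF and MRTF genes (0), 1 passed with quantile normalization, median ratio scaling or array weights, 2 with symbol-based scaling and 0 to 1 without single pools, with 1 without 7 dpi replicate 4 or 60 dpi replicate 1. Signs turned only for IDs that did not pass in either fit. THBS1 turned to 0.22 without 7 dpi replicate 1 (-0.19 to 0.22 without single pools). THBS3 (ENSDARG00000012060) turned to -0.021 without both replicates 4 and -0.049 without 7 dpi replicate 4 (-0.049 to 0.78), and SPARC to -0.12 with quantile normalization. TNC (ENSDARG00000021948) turned to 0.0058 without both replicates 4 and 0.71 without 60 dpi replicate 4 (-1.47 to 0.71). THBS4 (ENSDARG00000020072) turned to -0.090 with symbol-based scaling, -0.15 with array weights and -0.0084 without 7 dpi replicate 1 (-0.0084 to 0.38). thbs2b turned to -0.085 with symbol-based scaling, -0.27 with array weights, -0.26 without both replicates 4 and -0.31 without 7 dpi replicate 4 (-0.31 to 0.38), and TNC (ENSDARG00000078362), tested in 13 settings, to -0.069 with array weights. The causes were not tested. Depth is unknown, so its limit on low IDs could not be given.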
